A study of Mus musculus with 30 samples.

Results

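The genes described here were 38 genes of mitosis, taken as a set with Tpx2: the cyclins and kinase that start mitosis, the Aurora and Polo-like kinases with their cofactors, the chromosomal passenger complex, the spindle checkpoint, the anaphase-promoting complex, the kinetochore, the kinesins, the proteins that bundle spindle microtubules and the proteins that organise mitotic chromatin. They were listed by name, and each was read from the transcript with the highest mean. All 38 were found among the 20848 genes of the series and passed a filter of a mean of at least 1 RPKM, as did 13613 genes in all. RPKM scales reads to the length of the transcript and the depth of the library, so that levels of different genes can be set side by side per length.

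In a dividing cell, Cdk1 bound to cyclin B drives entry into mitosis. Tpx2 then binds and activates the kinase Aurora A on spindle microtubules, kinetochores attach the chromosomes to those microtubules, and the checkpoint holds back the anaphase-promoting complex until every chromosome is attached. Most of these genes are transcribed late in the cell cycle, and their RNA is widely read as a measure of dividing cells in breast tumours. Mki67 is the marker pathologists stain to count dividing breast tumour cells.

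The RNA came from mammary tumours driven by the polyoma middle T antigen (PyMT), a viral oncoprotein that activates growth factor signalling in the mammary epithelium. The 30 tumours, 1 per animal, came from offspring of MOLF x PyMT mice that were crossed once more to FVB, so all animals carried PyMT and each had its own mixture of MOLF and FVB chromosome segments. The labels gave no treatment, stage, age, genotype or promoter of the transgene, and no group without the oncogene, so every comparison below is a relation across the 30 tumours (n = 30 where no other n stands beside a value). Each tumour is called by its animal's number.

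The luminal epithelial markers Krt8, Krt18 and Epcam were abundant in every piece, with Krt8 between 284.1 and 793.7 RPKM, Krt18 between 326.5 and 764.9 RPKM and Epcam between 312.8 and 711.4 RPKM. The luminal keratin Krt19 varied more, between 24.4 RPKM in animal 4038 and 480.7 RPKM in animal 4042. The spacing of low values gave the depth of each library, 116.8 to 196.4 M reads in 14 deep libraries and 42.4 to 61.8 M reads in 16 shallow ones. Markers of other cell types differed between the pieces. The summed level of 20 matrix genes of the stroma had a median of 1652 RPKM, a lowest value of 461.5 RPKM in animal 4438 and a highest of 7756 RPKM in animal 4036. The piece from animal 4036 also had the highest summed level of 10 adipocyte genes, 3479 RPKM against a median of 261.6 RPKM, and the lowest of 12 luminal epithelial genes, 1689 RPKM against a median of 2521 RPKM. In RNA from whole pieces of tumour, fewer cells of a type and less RNA per cell cannot be told apart.

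Many promoters of the set shared short sequences. The RefSeq promoter table of build GRCm38.p6 held 32 windows for 30 of the 38 genes, each running from 250 bases before to 50 bases after the annotated start. Tpx2 itself had no window there, nor did Foxm1, Kif20a, Aurkb, Incenp, Cdca2, Ccna2 and Dlgap5, so the shares below leave these genes out. A pair of elements of late cell cycle genes were looked for on both strands: the CHR element (cell cycle genes homology region, TTTGAA or TTCGAA), which is bound by the MuvB core of the DREAM and B-Myb complexes, and the CCAAT box, which is bound by NF-Y. The stretches below run from 110 bases before to 30 bases after the start and are read 5′ to 3′ along the gene, with each CHR or CCAAT match on either strand in capitals. Ckap2l and Ttk are shown because their levels were among the nearest to that of Tpx2, and Ccnb2, Cdk1 and Cdc20 because they hold both elements close together.
Ckap2l, chr2:129297183-129297322, minus strand: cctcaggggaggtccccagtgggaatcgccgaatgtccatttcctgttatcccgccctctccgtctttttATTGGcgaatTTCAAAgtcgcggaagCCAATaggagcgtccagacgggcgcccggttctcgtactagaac
Ttk, chr9:83834579-83834718, plus strand: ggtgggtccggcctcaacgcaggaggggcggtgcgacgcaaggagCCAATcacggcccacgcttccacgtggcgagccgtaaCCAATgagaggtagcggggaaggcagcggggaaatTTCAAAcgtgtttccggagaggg
Ccnb2, chr9:70421525-70421664, minus strand: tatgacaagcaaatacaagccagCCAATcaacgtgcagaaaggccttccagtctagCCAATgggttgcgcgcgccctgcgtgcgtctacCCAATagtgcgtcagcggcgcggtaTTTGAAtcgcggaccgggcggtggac
Cdk1, chr10:69352883-69353022, minus strand: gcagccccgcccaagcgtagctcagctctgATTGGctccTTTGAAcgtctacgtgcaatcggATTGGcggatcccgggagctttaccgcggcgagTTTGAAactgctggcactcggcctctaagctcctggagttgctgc
Cdc20, chr4:118437314-118437453, minus strand: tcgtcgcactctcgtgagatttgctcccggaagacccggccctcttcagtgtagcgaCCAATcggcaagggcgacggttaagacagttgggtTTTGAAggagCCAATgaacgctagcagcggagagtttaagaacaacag

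The next 3 are shown as contrasts: Ube2c and Kif23 had the loosest relation to Tpx2 after Bub3, and Tacc3 had one of the closest.
Ube2c, chr2:164769819-164769958, plus strand: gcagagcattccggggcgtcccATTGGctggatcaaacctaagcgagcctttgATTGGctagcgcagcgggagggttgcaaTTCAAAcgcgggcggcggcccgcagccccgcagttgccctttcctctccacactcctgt
Kif23, chr9:61946770-61946909, minus strand: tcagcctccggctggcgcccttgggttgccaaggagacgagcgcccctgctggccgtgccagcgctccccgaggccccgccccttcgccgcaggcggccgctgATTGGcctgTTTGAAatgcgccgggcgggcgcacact
Tacc3, chr5:33658018-33658157, plus strand: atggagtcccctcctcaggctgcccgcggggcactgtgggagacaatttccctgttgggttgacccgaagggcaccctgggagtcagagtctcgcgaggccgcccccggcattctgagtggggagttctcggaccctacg

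A CHR match lay within 50 bases of the start in 22 of the 32 windows, which is 68.8%. The share was 48.2% of 83 windows of other mitosis genes, 9.76% of 41 windows of DNA replication genes and 5.31% of all 32851 windows in the table. At least 2 CCAAT boxes stood in 56.2% of the windows of the set and in 11.7% of all windows. Both features together stood in 46.9% of the windows of the set and in 0.718% of all windows. Neighbouring CCAAT boxes of the set lay a median of 33 bases apart from first base to first base, and 23 of 35 such pairs were 25 to 45 bases apart. The letters of a CHR and a CCAAT match overlapped in 1 window, and 2 CCAAT matches overlapped in 1 window. These matches describe letters and not binding. Tacc3, Birc5, Nuf2, Mad2l1 and Nusap1 held neither sequence in these windows, and Ube2c and Kif23 held both.

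**Figure D1:**
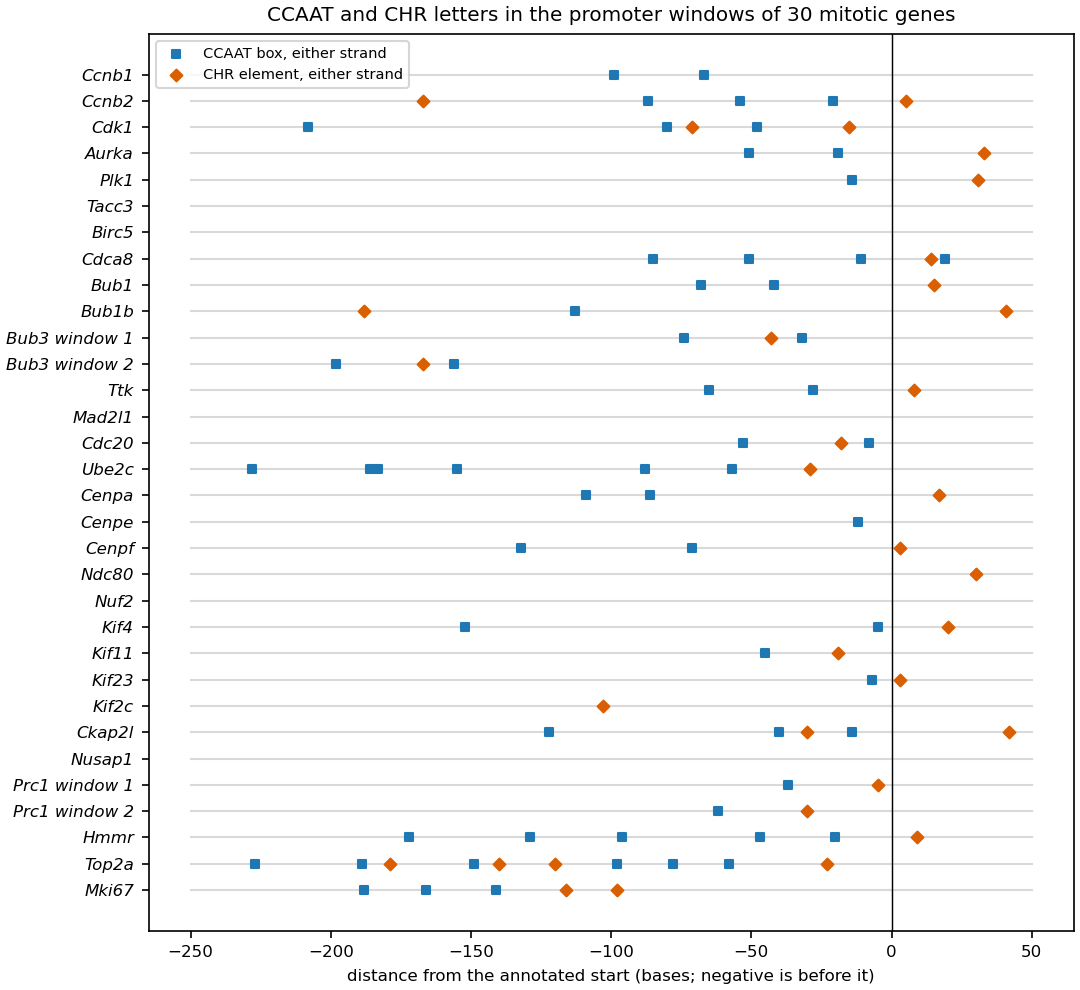
Positions of CCAAT boxes (blue squares) and CHR elements (orange diamonds) in the 32 promoter windows of 30 mitotic genes; the x axis is the distance of the first base of the match from the annotated start in bases, and each row is 1 window. A CHR element stands within 50 bases of the start in 22 of the 32 windows, and 15 of the 32 hold such an element and at least 2 CCAAT boxes.

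The mitotic genes were abundant and variable among these tumours. Their mean levels had a median of 24.7 RPKM, against 11.7 RPKM over all tested genes, and 29 of the 38 lay above the value for all genes. The SD of log2(RPKM + 1) over the tumours had a median of 0.34 in the set, against 0.27 over all tested genes, and 37 of the 38 were above the value for all genes, Bub3 being the exception. Between the highest and the lowest tumour the levels differed by 2.21-fold (Bub3) to 4.15-fold (Ube2c), with a median of 2.72-fold, and 8 genes passed 3-fold.

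Cyclin B1, cyclin B2 and cyclin A2 activate Cdk1, and Foxm1 is the transcription factor that switches on many of the other genes late in the cell cycle. Ccna2 had a lowest level of 27.4 RPKM in animal 4036, a median of 44.4 RPKM and a highest level of 71.8 RPKM in animal 4459. Cdk1 had a lowest level of 16.5 RPKM, a median of 31.9 RPKM and a highest level of 45.3 RPKM. Both genes were thus lowest in animal 4036 and highest in animal 4459, while Ccnb1, which ranged from 19.8 to 51.3 RPKM around a median of 33.8 RPKM, was highest in animal 3939. Ccnb2 ranged from 23.8 to 58.3 RPKM around a median of 42.2 RPKM, and its ratio to Ccnb1 lay between 0.902 and 1.64 in the 30 tumours. Foxm1 was the least abundant of these genes, with a lowest level of 6.57 RPKM, a median of 10.9 RPKM and a highest level of 16.6 RPKM in animal 4262. Reads of Ccna2 and Foxm1 may be shared with Exosc9 and Tex52, whose annotated spans overlap theirs, since the counting of strand is not given in the sources used here. In RefSeq, Ccnb1, Ccnb2 and Kif4 have pseudogene copies, with which reads may also be shared.

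Tpx2, the spindle assembly factor that activates Aurora A, had a lowest level of 14.7 RPKM in animal 4036, a median of 23.95 RPKM and a highest level of 44.2 RPKM in animal 4459. The next highest tumour, from animal 4438, was at 34.5 RPKM and the second lowest, from animal 4144, at 16.6 RPKM, so animal 4459 stood clear of the others. The 5 deposited transcripts of Tpx2 had means between 23.8 and 24.8 RPKM. Aurka, the kinase itself, had a lowest level of 13.03 RPKM, a median of 20.4 RPKM and a highest level of 32.6 RPKM, in animal 4164. The ratio of Tpx2 to Aurka stayed between 0.922 and 1.43 with a median of 1.13. Its log2 value had an SD of 0.17, the smallest of 17 chosen pairs of mitotic partners compared in this way. The ratios of Kif11 to Tpx2 (SD 0.18) and of Hmmr to Tpx2 (SD 0.19) came close to it. Aurka was not the gene nearest to Tpx2 in its pattern. The Pearson r of Aurka with Tpx2 was 0.86, at place 50 among all tested genes. Plk1, the Polo-like kinase of spindle poles and kinetochores, ranged from 19.5 to 56.2 RPKM around a median of 35.7 RPKM. Tacc3, the substrate that Aurora A recruits to spindle microtubules, ranged from 17.2 to 55.2 RPKM around a median of 33.9 RPKM. Plk1 was highest in animal 4030 and Tacc3 in animal 4459. Aurka overlaps Cstf1 in the annotation.

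The chromosomal passenger complex joins the kinase Aurora B to Incenp, survivin (Birc5) and borealin (Cdca8), and corrects faulty attachments of chromosomes to the spindle. Birc5 was the most abundant of the 4 genes, with a lowest level of 23.5 RPKM in animal 4036, a median of 49.8 RPKM and a highest level of 83.8 RPKM in animal 4030. Aurkb ranged from 13.1 to 31.9 RPKM around a median of 23.8 RPKM. Birc5 was above Aurkb in every tumour, by 1.69- to 3.11-fold, and so was Cdca8, by 1.06- to 2.05-fold, whereas the ratio of Incenp to Aurkb fell on both sides of 1, between 0.90 and 1.62. A second Birc5 transcript had a mean of 14.1 RPKM, against 49.5 RPKM for the one used.

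Among the spindle checkpoint genes Bub3 stood apart. The checkpoint kinases Bub1 and Ttk (known as Mps1) were low, with medians of 8.58 and 10.1 RPKM. Bub1b (BubR1), which with Mad2l1 (Mad2) and Bub3 forms the complex that inhibits Cdc20, had a lowest level of 14.3 RPKM in animal 4036, a median of 24.5 RPKM and a highest level of 45.2 RPKM in animal 4459. Bub3 had a lowest level of 33.8 RPKM in animal 4378, a median of 48.4 RPKM and a highest level of 74.8 RPKM in animal 4030. Its lowest and highest tumours were thus not those of Bub1b, and it was at 57.6 RPKM in animal 4459. The ratio of Bub1b to Bub3 lay between 0.298 in animal 4144 and 0.785 in animal 4459, and the SD of its log2 value, 0.36, was the largest of the 17 pairs. Mad2l1 ranged from 12.1 to 31.9 RPKM around a median of 19.8 RPKM.

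The most abundant genes of the set were those of the anaphase-promoting complex. Cdc20, its mitotic activator, had a lowest level of 37.1 RPKM in animal 4036, a median of 62.5 RPKM and a highest level of 97.7 RPKM in animal 4547. Ube2c, the enzyme that starts the ubiquitin chains the complex builds, had a lowest level of 41.1 RPKM in animal 4036, a median of 85.8 RPKM and a highest level of 170.6 RPKM in animal 4150. Ube2c was also the most variable gene of the set, with an SD of 0.48 on the log2 scale. Cdc20 overlaps Elovl1 in the annotation.

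Centromere and kinetochore genes other than Cenpa had mean levels of 12.1 RPKM or less, below the median of 24.7 RPKM for the set. Cenpf, a large kinetochore protein, had the lowest mean of the set, with a lowest level of 2.97 RPKM, a median of 4.69 RPKM and a highest level of 9.36 RPKM in animal 4459. Cenpe, the kinetochore motor that carries chromosomes to the spindle equator, ranged from 4.36 to 14.9 RPKM around a median of 7.18 RPKM, also with animal 4459 on top. That animal exceeded the next one, 4438, by more in Cenpe (11.3 RPKM in animal 4438) than in Cenpf (8.41 RPKM). Ndc80 and Nuf2 form one arm of the complex that grips microtubules, and had medians of 11.5 and 10.3 RPKM. Their ratio lay between 0.923 and 1.72, with the top value in animal 3654. Cenpa, the histone H3 variant that marks centromeres, had a higher mean of 31.6 RPKM and ranged from 17.8 to 47.2 RPKM.

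The 5 kinesins are Kif4, Kif11, Kif2c, Kif20a and Kif23. Kif11, known as Eg5, is a motor that builds the spindle, and Kif2c, known as MCAK, is a depolymerase at centromeres. Kif20a and Kif23, known as Mklp2 and Mklp1, are motors of the midzone and of cytokinesis. Kif11 had a lowest level of 10.7 RPKM in animal 4144, a median of 17.02 RPKM and a highest level of 29.5 RPKM in animal 4459. Kif23 had a lowest level of 14.7 RPKM in animal 4036, a median of 22.1 RPKM and a highest level of 41.3 RPKM in animal 4150. Kif4 ranged from 5.25 to 15.4 RPKM, Kif20a from 16.9 to 39.3 RPKM and Kif2c from 13.3 to 34.8 RPKM. Kif2c shared its highest tumour with Kif23, and Kif4 and Kif20a shared theirs with Kif11. The annotated span of Kif20a overlaps that of Cdc23 over 4930 bases, so reads there may be shared.

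The spindle binding proteins Prc1, Nusap1, Dlgap5 (Hurp), Hmmr and Ckap2l bundle or stabilise microtubules, and all 5 were highest in animal 4459. Prc1, which crosslinks the midzone, ranged from 17.6 to 45.8 RPKM around a median of 26.4 RPKM. Dlgap5 ranged from 5.91 to 17.03 RPKM, Nusap1 from 10.7 to 28.1 RPKM, Hmmr from 9.44 to 26.1 RPKM and Ckap2l from 9.36 to 24.6 RPKM. Prc1 overlaps Rccd1 and Nusap1 overlaps Oip5 in the annotation.

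Of the chromatin genes, Top2a, the topoisomerase that untangles sister chromatids, had a lowest level of 30.9 RPKM in animal 4144, a median of 54.2 RPKM and a highest level of 83.8 RPKM in animal 4459. Mki67, which coats mitotic chromosomes, had a lowest level of 17.2 RPKM in animal 4036, a median of 27.4 RPKM and a highest level of 47.9 RPKM in animal 4459. Cdca2, which brings a phosphatase to chromatin after mitosis, ranged from 4.97 to 13.6 RPKM. All 3 were highest in the same tumour, while their lowest values fell in 2 tumours.

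**Figure D2:**
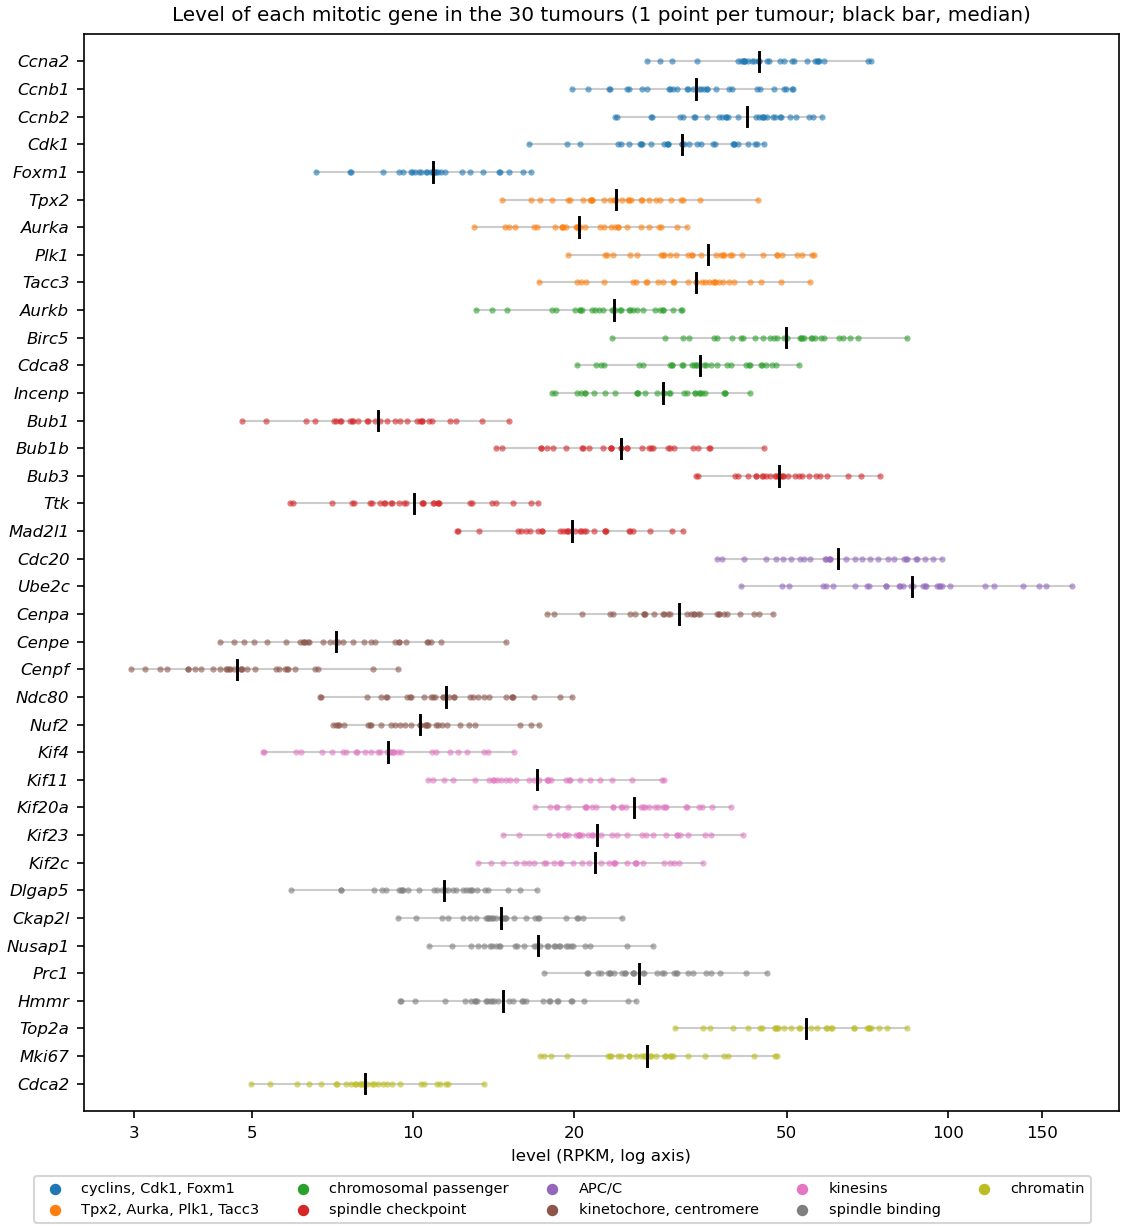
Level of each of the 38 mitotic genes in each of the 30 tumours, in RPKM on a log axis; each point is 1 tumour, the black bar is the median, and colours give the role. Ube2c (median 85.8 RPKM) and Cdc20 (62.5 RPKM) lie furthest to the right and Cenpf (4.69 RPKM) furthest to the left.

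The same few tumours stood at the ends for most of the genes. The tumour of animal 4459 had the highest level of 25 of the 38 genes and was among the top 5 tumours for 36 of them. The tumours of animals 4547 and 3939, like that of 4459, were above the median for all 38, and those of animals 4164 and 4438 were above it for 37 and 36. At the other end, the tumour of animal 4036 was the lowest for 24 genes and among the bottom 5 for all 38, and that of animal 4144 was the lowest for 11. Summed over the set, the level was 604 RPKM in animal 4036, 1034 RPKM at the median and 1537 RPKM in animal 4459. The low tumour of animal 4036 was the one with the highest stroma and adipocyte levels given above, and the part of these in its low mitotic levels was not tested.

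Animal 4150 did not follow this order. Its tumour had the highest levels of Ube2c (170.6 RPKM, with 152.8 RPKM in the next tumour), Kif23 (41.3 RPKM, with 36.1 RPKM in the next) and Kif2c (34.8 RPKM, with 31.5 RPKM in the next). In the same tumour Bub1b, Kif4, Kif11, Hmmr and Top2a stood at place 28 of 30 from the top. Bub1b was at 17.3 RPKM there, Kif11 at 11.4 RPKM and Top2a at 35.9 RPKM. The ratio of Kif23 to Prc1 was 1.66 in this tumour, against a median of 0.827. Its library was the shallowest, with 42.4 M reads, and its stroma matrix score was the second lowest. The part of either in the split was not tested.

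**Figure D3:**
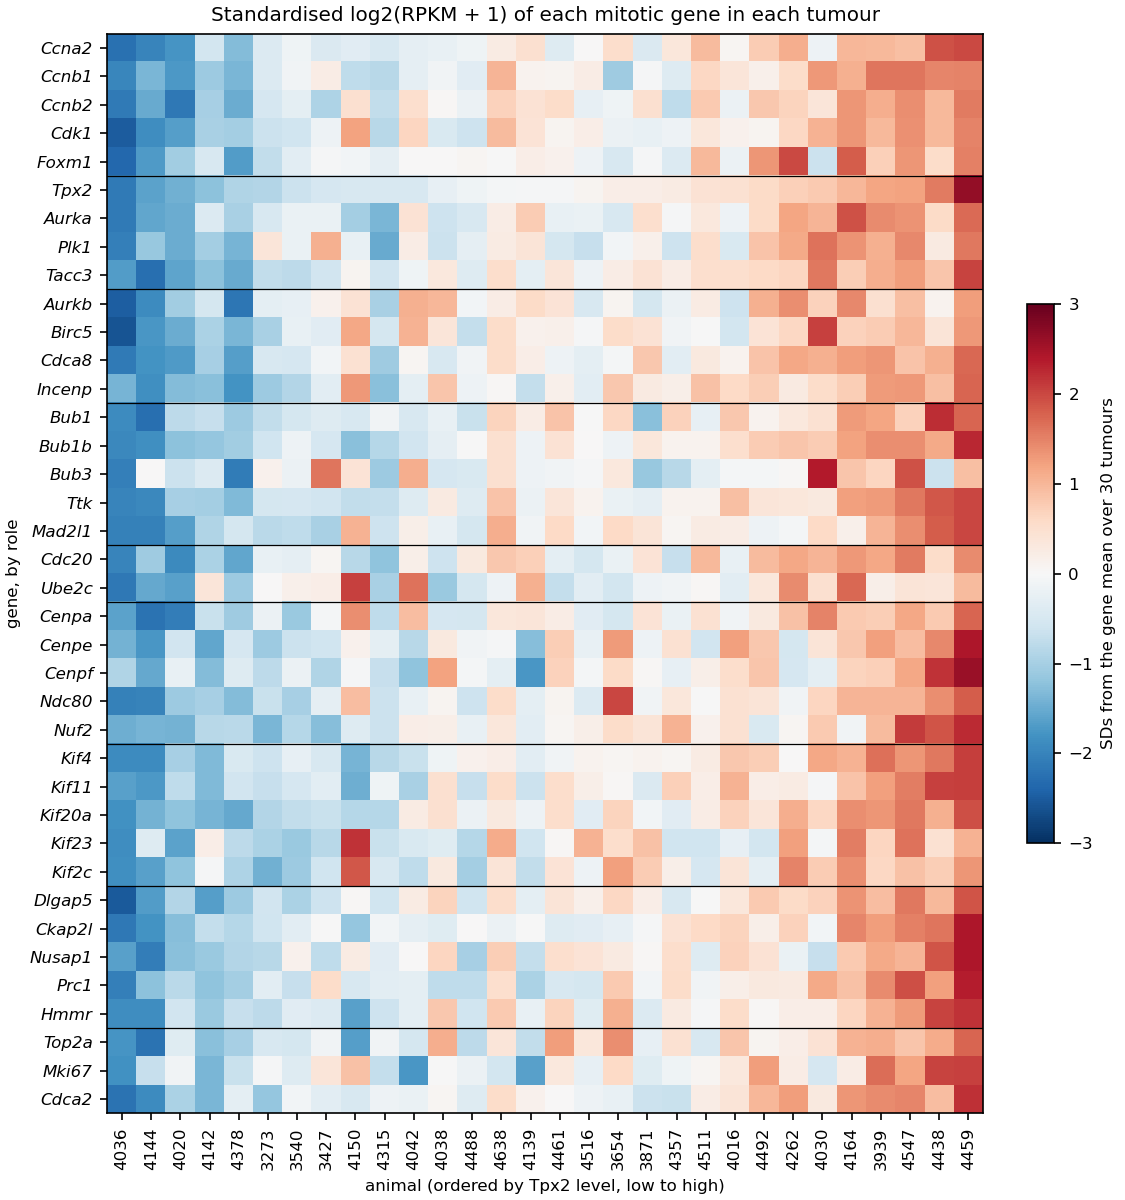
Standardised log2(RPKM + 1) of each mitotic gene (rows, by role) in each tumour (columns, ordered by the Tpx2 level); red is above and blue below the gene's mean over 30 tumours, in SDs. Most rows turn from blue to red in the order of Tpx2, from animal 4036 to animal 4459, while animal 4150 holds both colours.

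Nearly all of the genes rose with Tpx2. Each gene was regressed on the Tpx2 level, per SD of Tpx2 and beside the insert size of the library, with limma over all 13612 other tested genes and Benjamini-Hochberg adjustment over all of them at a threshold of 0.05. Of the 37 other genes of the set, 36 rose with Tpx2 and 0 fell, where 9.2% of all tested genes rose and 6.8% fell. The median slope was 0.28 log2 units per SD of Tpx2 in the set and 0.004 over all tested genes. Bub1b had the steepest slope, 0.37 ± 0.02 (SE, limma adjusted p = 4.54e-12), followed by Tacc3 at 0.35 ± 0.03 and Ccnb1 at 0.34 ± 0.03. Kif23 (0.21 ± 0.05) and Aurkb (0.22 ± 0.04) had the shallowest slopes among those that passed. Bub3 alone did not pass, at 0.12 ± 0.04 (limma adjusted p = 0.0520). It lay close to the threshold and passed when animal 3427, 4042, 4144, 4150, 4357 or 4438 was left out (limma adjusted p between 0.0286 and 0.0492). Ube2c, with a limma adjusted p of 0.0167, did not pass without animal 4036 (0.20 ± 0.08, limma adjusted p = 0.0866). Every gene passed in each of the other 8 roles, whose median slopes lay between 0.27 for the chromatin genes and 0.31 for the mitotic kinases and cofactors. Within the deep libraries alone 29 of the 37 passed (n = 14), and within the shallow libraries alone 33 passed (n = 16). Over all 13612 tested genes, 173 and 541 rose in these subsets. Bub3 and Ube2c missed in both. Without animal 4150 the slope of Kif23 was 0.23 ± 0.05 and that of Ube2c 0.29 ± 0.07, against 0.26 ± 0.08 for Ube2c with all tumours. The 6 other genes of the set that lie on chromosome 2 with Tpx2 (Aurka, Bub1, Bub1b, Ube2c, Ckap2l and Nusap1) had a median slope of 0.27, and the 31 on other chromosomes one of 0.28.

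The gene nearest to Tpx2 in its pattern over the 30 tumours was Bub1b, of all 13612 tested. Its Pearson r was 0.957 and its Spearman rho 0.952, each with a permutation p of 1e-05, the smallest that 100000 permutations can give, and adjusted p of 0.000483 and 0.000545. With animals 4459 and 4036 left out, whose Tpx2 levels lay farthest from the median, r was 0.941, and it was 0.978 in the deep and 0.947 in the shallow libraries. Of the 10 nearest genes, 6 were members of the set: Bub1b, Kif4 (r = 0.941), Ckap2l (0.940), Ttk (0.930), Tacc3 (0.928) and Kif20a (0.921). The nearest genes outside the set included Melk, a kinase of dividing cells (0.943), Mcm10, a replication initiation factor (0.934), and Fbxo5, known as Emi1, an inhibitor of the anaphase-promoting complex (0.921). The set had a median r of 0.857 and 25 of its genes among the 100 nearest, against a median of 0.018 over all genes. Bub3 was the farthest of the set, with r = 0.464 and rho = 0.383 (permutation adjusted p = 0.0605 and 0.142), and r = 0.329 without the same 2 tumours. Ube2c had r = 0.534 and rho = 0.511 (permutation adjusted p = 0.0225 and 0.0360), with r = 0.418 without the 2 tumours.

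Genes of mitosis outside the set did the same. Of 88 such genes, 79 rose with Tpx2 and 0 fell, where 9.2% of all tested genes rose and 6.8% fell. Those 79 included Melk (0.34 ± 0.03), Nek2, a centrosome kinase (0.31 ± 0.03), and Fbxo5 (0.28 ± 0.03). The 9 that did not pass included Psrc1, with a slope of 0.001 ± 0.098, and the core anaphase-promoting complex genes Anapc1, Cdc16 and Cdc27. Anapc1 lay close to the threshold, at 0.11 ± 0.04 (limma adjusted p = 0.0520). Cdc16 had a slope of 0.07 ± 0.03 at a median of 50.3 RPKM and Cdc27 one of 0.08 ± 0.04, both with an unadjusted p under 0.05. Of 45 replication genes 42 rose, among them Rrm2, a subunit of ribonucleotide reductase (0.39 ± 0.05), the replication clamp Pcna (0.24 ± 0.04) and the helicase subunit Mcm7 (0.24 ± 0.03). Of 34 cell cycle control genes 14 rose and 0 fell, against the same 9.2% and 6.8%. Those that rose included Mybl2 (B-Myb, 0.32 ± 0.05), E2f8 (0.30 ± 0.04), E2f7 (0.27 ± 0.03), Tfdp1 (0.21 ± 0.03), the MuvB subunits Lin9 (0.16 ± 0.03) and Lin54 (0.12 ± 0.03), and Cdk4 (0.16 ± 0.05). The MuvB subunits Lin37 (-0.004 ± 0.049) and Lin52 (-0.03 ± 0.03) did not pass. Ccnd1 had a slope of -0.02 ± 0.07, Rb1 one of -0.12 ± 0.08, Trp53 one of 0.05 ± 0.06 and Cdkn1a one of -0.22 ± 0.15, and these did not pass either.

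Markers of stroma and endothelium ran against Tpx2, and few markers of other cell types passed. Of the 20 stroma matrix genes 15 fell with Tpx2, among them Col1a1 (-0.38 ± 0.11), Sparc (-0.37 ± 0.09) and Postn (-0.47 ± 0.10). Of 10 endothelial genes 5 fell, and 1 of 9 adipocyte genes, where 6.8% of all tested genes fell. The adipocyte count lies near that share and is by itself no result about adipocyte genes. All 20 stroma, 10 endothelial and 9 adipocyte slopes were below 0, and 19, 9 and 7 of them had an unadjusted p under 0.05. These counts turned on single tumours. Without animal 4036, 1 stroma, 2 endothelial and 0 adipocyte genes fell, and without animal 4438, 5, 2 and 0 did. Without animal 4150, 9 endothelial genes fell, and the adipocyte genes that fell numbered 3 without animal 4020, 2 without animal 4357 and 6 without animal 4459. Of 12 luminal epithelial genes 1 rose (Cdh1, 0.14 ± 0.05), and 0 did without animal 3273, 3939, 4036, 4144 or 4438. This count lies near the 9.2% of all tested genes that rose and is no result about luminal genes. With all tumours Krt18 had a slope of 0.04 ± 0.06 and Epcam one of -0.03 ± 0.04. None of the macrophage (12), milk (10), skeletal muscle (10), T cell (7) and B cell (5) genes passed with limma, where 16% of all tested genes changed either way. Of these genes 1, 0, 0, 1 and 1 had an unadjusted p under 0.05, and 11, 8, 10, 5 and 5 had slopes below 0. A count of 0 in each of these small lists lies near the 16% and is no result about these markers.

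The neighbours of Tpx2 on chromosome 2 were fitted in the same way. The 10 nearest tested genes on each side were taken in the order of the RefSeq gene table, and ran outward to Rbck1 before Tpx2 and to Nol4l after it. Of these 20, 0 rose with Tpx2 and 2 fell, and 5 had an unadjusted p under 0.05, where 16% of all tested genes changed either way. Among 20 genes these counts lie near that background and are no result about the neighbours. Pdrg1 had a slope of -0.12 ± 0.04 (limma adjusted p = 0.0207) and Ccm2l one of -0.14 ± 0.04 (limma adjusted p = 0.0257), and neither passed in the deep or in the shallow libraries alone. The nearest neighbours that did not pass were Bcl2l1, an inhibitor of apoptosis, at 0.04 ± 0.05 and Mylk2, a muscle kinase, at -0.22 ± 0.20. Tpx2 was also fitted beside the mean standardised level of the other mitotic genes, which leaves only what Tpx2 does not share with them. In that fit 0 of the 20 neighbours and 0 of the 37 mitotic genes passed with limma, where 0.867% of all tested genes did, and 2 neighbours and 9 mitotic genes had an unadjusted p under 0.05. Ckap2l and Kif4 came closest to passing, with slopes of 0.29 ± 0.08 and 0.36 ± 0.09 (limma adjusted p = 0.0529 for both). Counts of 0 among 20 and 37 genes lie near that background and are no result about these genes. The SEs were also larger than in the fit on Tpx2 alone, at 0.08 against 0.02 for Bub1b and 0.14 against 0.04 for Bub3.

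**Figure D4:**
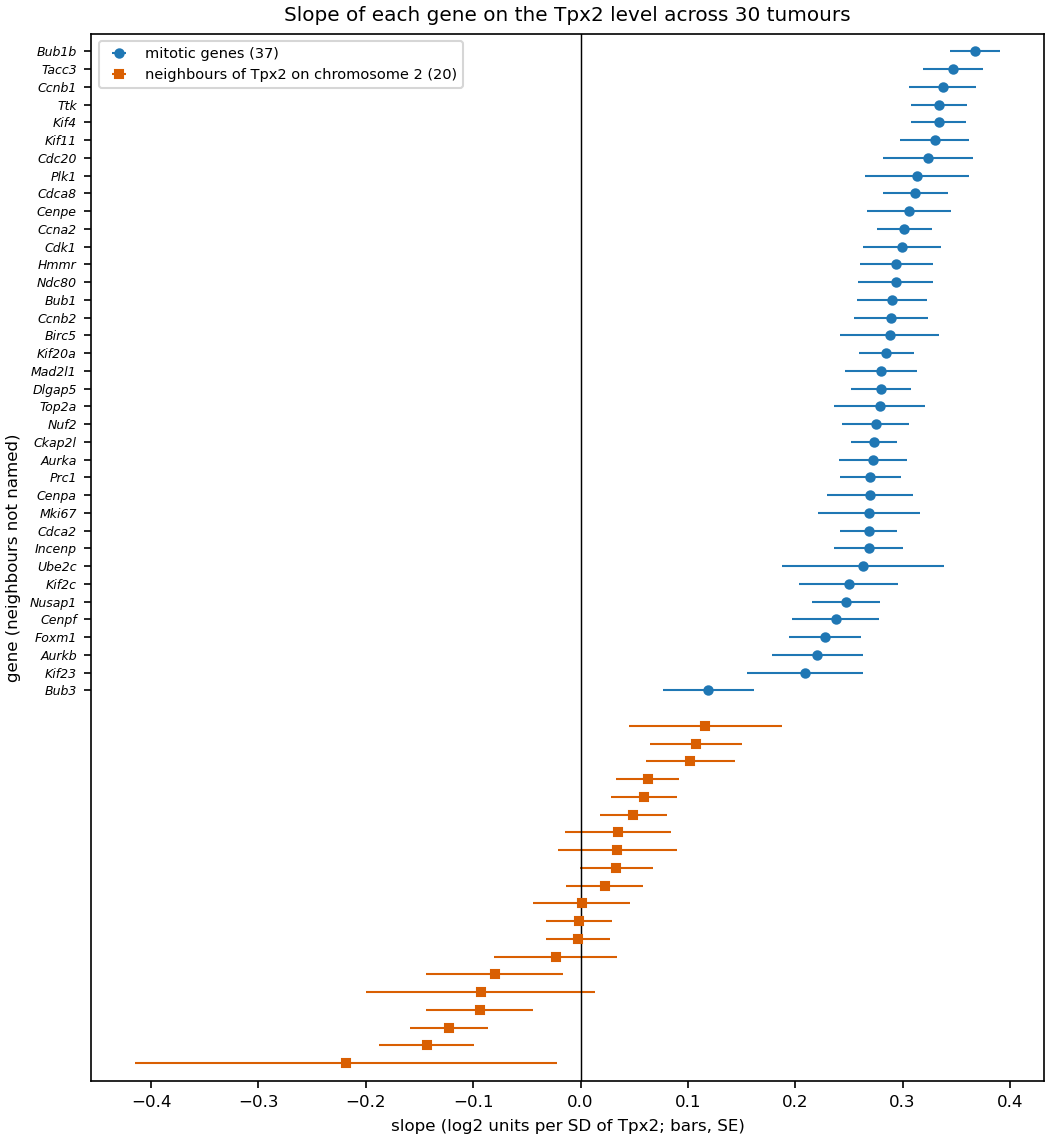
Slope of each gene on the Tpx2 level over 30 tumours, in log2 units per SD of Tpx2 with SE bars; the 37 mitotic genes (blue circles) and, unnamed, the 20 neighbours of Tpx2 on chromosome 2 (orange squares) are each sorted by slope. All mitotic genes lie right of 0, between 0.12 for Bub3 and 0.37 for Bub1b, and the neighbours lie on both sides of 0.

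DNA replication precedes mitosis in each cycle, and the replication list shares no gene with the set. Regressed on the score of the 45 replication genes, 38 of the 38 mitotic genes rose, where 10.3% of all tested genes did. The median slope was 0.29 log2 units per SD of the score, against 0.005 over all tested genes. Tacc3 had the steepest slope at 0.36 ± 0.02 (limma adjusted p = 3.86e-12), and Bub3 the shallowest at 0.15 ± 0.04 (limma adjusted p = 0.00907). Without animal 4036 Bub3 did not pass (0.12 ± 0.04, limma adjusted p = 0.0502). Within the deep libraries 31 of the 38 passed and within the shallow ones 35, where 273 and 444 of all 13568 tested genes rose.

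The mitotic genes fell with the stroma matrix score, and the count depended on 1 tumour. Of the 38 genes 31 fell and 0 rose, where 10.3% of all tested genes fell and 9.96% rose, and the median slope was -0.18 log2 units per SD of the score against -0.02 over all tested genes. Kif2c had a slope of -0.24 ± 0.05 (limma adjusted p = 0.000494), Ndc80 of -0.24 ± 0.05 (limma adjusted p = 0.000676) and Mad2l1 of -0.23 ± 0.04 (limma adjusted p = 0.000466). Aurka, Bub1b, Bub3, Cdc20, Kif4, Plk1 and Top2a did not pass. Markers of other cell types moved with the same score, and their part in the fall was not tested. Of the adipocyte genes 9 of 9 rose with it, of the endothelial genes 10 of 10 and of the macrophage genes 9 of 12, while 0 of 12 luminal epithelial genes passed and 5 of these had an unadjusted p under 0.05. The summed levels ran from 52.5 to 3479 RPKM for the adipocyte, 34.3 to 143.5 RPKM for the endothelial and 417.2 to 1152 RPKM for the macrophage genes. Without animal 4036, 4 adipocyte, 9 endothelial and 6 macrophage genes rose, and without animal 4438, 9, 10 and 5 did. Among the mitotic genes, without animal 4036, whose piece had the highest stroma level, 9 of the 38 fell (Cdk1, Incenp, Bub1, Mad2l1, Ndc80, Kif23, Kif2c, Nusap1 and Mki67) and the median slope was -0.14, with all 38 slopes below 0. Without animal 4438, whose piece had the lowest, 21 fell, and without both 3 fell, where 521 of all 13593 tested genes did. In the deep libraries alone 10 fell, with a median slope of -0.23, where 74 of the 13593 did. In the shallow libraries alone 0 fell, with a median slope of -0.17, where 104 of the 13593 did.

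**Figure D5:**
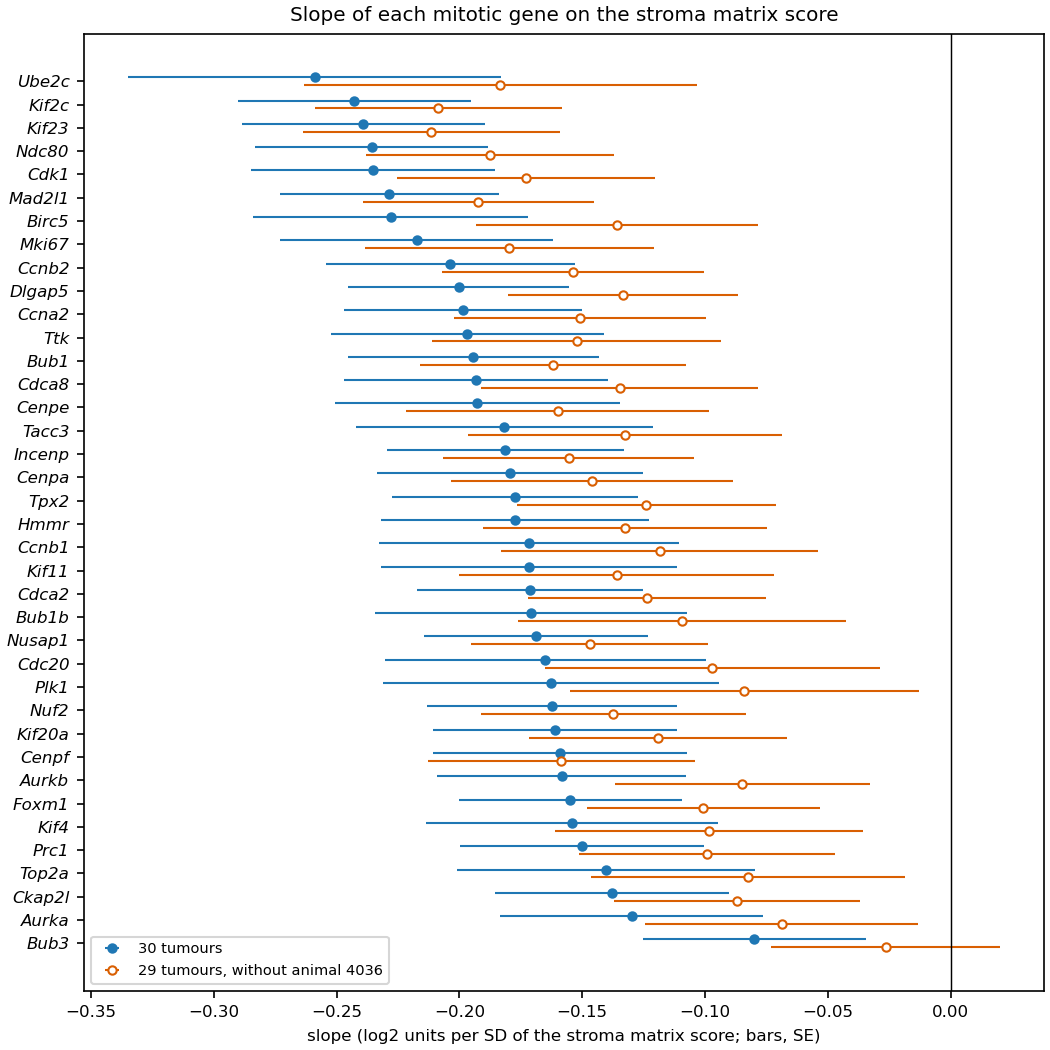
Slope of each of the 38 mitotic genes on the stroma matrix score, in log2 units per SD of the score with SE bars, over all 30 tumours (filled blue) and without animal 4036 (open orange). Every slope lies below 0 in both fits, and the median moves to -0.14 without that animal, against -0.18 with it.

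Against the other scores no gene of the set passed, and few of all tested genes did. With the T cell score, taken because infiltrating lymphocytes may divide, 0 of the 38 passed with limma and 4 had an unadjusted p under 0.05, where 1.64% of all tested genes passed. Those 4 were Bub3, Plk1, Aurkb and Cdc20, with slopes from -0.16 to -0.11. Without animals 4378 and 4142, which had the highest T cell scores, the median slope of the set was -0.005, against -0.07 with all tumours. All 5 tested B cell genes rose with the same score. With the milk score, a measure of secretory differentiation, 0 of 38 passed and 0 had an unadjusted p under 0.05, where 1.02% of all tested genes passed. The insert size of the libraries gave 0 and 0, where 0.0367% of all tested genes passed, and the depth of the libraries gave 0 and 0, where 1.24% did. These counts of 0 among 38 genes lie near those shares and are no result about the set. Slopes below 0 numbered 35 of the 38 for the T cell score, 34 for the milk score, 30 for insert size and 18 for depth. In that order the median slopes were -0.07, -0.04, -0.03 and 0.02, against 0.01, -0.03, -0.004 and -0.0001 over all tested genes. The deep libraries mostly had shorter inserts than the shallow ones, so insert size and depth were not separate checks. Kif23 had the largest difference by depth, with 22.3 ± 4.7 RPKM in the deep libraries (SD, n = 14) and 26.6 ± 7.4 RPKM in the shallow ones (SD, n = 16), a log2 difference of -0.22 ± 0.12 (SE, limma adjusted p = 0.663). Tpx2 itself differed by 0.03 ± 0.12 between the deep and the shallow libraries.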

How the data were processed

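Poly-A selected RNA of 30 mammary tumours, 1 per animal, was sequenced after fragmentation and gel size selection (source: the labels' protocols). The table that the authors deposited held 27902 RefSeq transcripts in 30 columns. Its unit, RPKM, is named in no label and was inferred from the deposited values: low values of transcripts of 150 to 2500 bases, multiplied by their length, fell on steps, with 68.5 to 77.0% within 0.12 of a whole number of reads at the depth given, against 19.7 to 23.2% at a typical depth. Counts were not rebuilt from so low a share, and no count model was used. Per the submitters' processing notes, CASAVA 1.7.0 was among the tools; the sources used here give no aligner settings, strand or genome build.

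Transcripts were named with the RefSeq gene table of GRCm38.p6 (26490) or GENCODE vM21 (154). The RefSeq gene table also gave chromosomes, gene order, overlaps of annotated spans and the class of small RNA. GENCODE vM21 also gave the transcript lengths from which unit, depth and reads were inferred. The 1258 without a name (1.94% of the summed RPKM) and 693 small RNA transcripts were left out. The transcript with the highest mean stood for each gene. All analyses used log2(RPKM + 1), a scale that understates changes at low levels, where the mean over the tumours was 1 RPKM or more. Each gene was regressed on the scaled level of Tpx2, on the mean standardised level of a list, on insert size or on depth class (largest gap in depth) by limma 3.58.1 in R 4.3.3 (two-sided, moderated with a mean-variance trend), beside insert size for the level and list scores. P-values were adjusted by Benjamini-Hochberg over every tested gene, and 0.05 was the threshold. The genes of a list were left out of its own fit. With 1 library per animal, SEs and p-values reflect differences between animals and technical variation alike. Correlations with Tpx2 used 100000 permutations (Python 3.11.15, numpy 2.4.6, scipy 1.17.1, pandas 2.3.3), and plots matplotlib 3.10.9. The fit was tested on simulated data whose noise was independent between genes. Genes of these tumours vary together, so that test cannot show how reliable the calls here are. The members, lists and tests were chosen with earlier results of these data known. Named were all members, the 10 neighbours of Tpx2 on each side, the genes most like Tpx2, and the most abundant and most strongly moving genes of other lists, of which a selection is given. The control genes, the mitosis genes that did not pass and the pairs for ratios were named outside that rule. Alternatives were other pseudocounts, filters, scaling and scores, depth as a term, each depth class alone, and tumours left out.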

Additional observations from a re-analysis of the deposited data

How the results depend on the processing

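No slope of a mitotic gene on Tpx2, the replication score or the stroma score changed sign under any alternative run. The count of mitotic genes that rose with Tpx2 was 35 to 37 of 37 when each tumour was left out in turn, and that with the replication score 37 to 38 of 38. The 0 of 38 for the T cell score, milk score, insert size and depth class stood at 0 in every alternative run. The falling mitotic genes on the stroma score numbered 9 to 35 with 1 tumour left out, 10 in the deep libraries alone, 0 in the shallow libraries alone and 3 without the 2 tumours farthest from the median, against 31. Of all 13593 tested genes 74, 104 and 521 fell in the last 3 settings, against 1395. The changed neighbours of Tpx2 numbered 1 to 3 with 1 tumour left out, 1 under a filter at 5 RPKM, 0 in the deep and 0 in the shallow libraries alone, and 1 without the 2 farthest tumours, against 2. Fitted beside the other mitotic genes, Tpx2 took 0 to 2 mitotic genes with 1 tumour left out and 2 under a filter at 5 RPKM, against 0. The subsets hold fewer tumours, and beyond that the cause was not tested. Over all tested genes, the 2177 calls on Tpx2 became 223 in the deep libraries, 678 in the shallow libraries and 1162 without the 2 farthest tumours. The 2398 on the replication score became 371, 528 and 1185, and the 2749 on the stroma score 697, 440 and 1049, in the same 3 subsets. With 1 tumour left out the calls on Tpx2 ranged from 1440 (without animal 4438) to 2813 (without animal 4150), those on the replication score from 1466 (without animal 4036) to 2926, and those on the stroma score from 1696 (without animal 4036) to 2958. The 118 calls beyond the other mitotic genes ranged from 0 to 320, the 223 on the T cell score from 8 to 646, the 139 on the milk score from 1 to 244, the 5 on insert size from 1 to 468 (with depth as a term) and the 169 on depth from 60 to 249. On the milk score 63 rose and 76 fell, against 79 and 24 after quantile normalization. No paired analysis was possible because all 30 tumours form 1 group. At the depths recovered, the level with the fewest reads among the mitotic genes, Ndc80 in animal 4144, stood for about 843 reads.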
